A study of Rattus norvegicus with 10 samples.

Results

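Natural killer (NK) cell receptors and cytotoxic granule genes were followed in the submandibular gland of hypertensive and normotensive rats. The set holds 10 genes, Klra1, Ly49s7, Klrd1, Klrk1, Klrc1, Klrg1, Nkg7, Prf1, Gzma and Gzmb, chosen by name. All 10 of them had a probe among the 15168 named genes on the array, and their 13 probes all passed the filter on dim probes. The animals were males, 14 weeks of age. The strains were the spontaneously hypertensive rat (SHR), inbred for high blood pressure, and the normotensive Wistar-Kyoto rat (WKY), matched to it for age and weight, with 5 arrays each. No treatment or induced allele is named for either group, so strain is the only stated difference, and it covers every gene that differs between the strains. The labels name whole submandibular gland, a salivary gland, so each value averages over all of its cells, and fewer cells of a type and less RNA per cell cannot be told apart.

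NK cells are lymphocytes that kill infected or transformed cells without prior priming. Their activity is set by the balance of inhibitory receptors, which recognise major histocompatibility complex (MHC) class I molecules on healthy cells, and activating receptors. In rodents the Ly49 (Klra) family of lectin-like receptors reads MHC class I. The paired chains CD94 (Klrd1) and NKG2A (Klrc1) read nonclassical class I, and NKG2D (Klrk1) binds stress-induced class I-like ligands. Killing uses granules that hold perforin (Prf1), which forms pores, and granzymes (Gzma, Gzmb), serine proteases that enter through them. Cytotoxic T cells share the granule genes and several of the receptors, and salivary glands hold resident lymphocytes of both kinds.

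Of the genes, Klra1, Ly49s7, Klrd1, Klrk1 and Klrc1, lie together on chromosome 4 in the natural killer gene complex, and Klrg1 lies elsewhere on that chromosome. The other members were spread over chromosomes 1 (Nkg7), 20 (Prf1), 2 (Gzma) and 15 (Gzmb). RefSeq sequence before the start of the gene was found for 8 of the 10 members in the table of assembly GRCr8. This is reference sequence, and that of the SHR and WKY animals was not read. The 250 bases upstream are shown, 5′ to 3′ on the strand of the gene, for both Ly49 members of the set, which were lower in SHR, and for their close relative Klra22, whose level did not pass the test. They lie at chr4:166313616-166313865 (Klra1), chr4:166511294-166511543 (Ly49s7) and chr4:165743026-165743275 (Klra22), all on the minus strand. Capitals mark the longest run of bases that all 3 share.
Klra1: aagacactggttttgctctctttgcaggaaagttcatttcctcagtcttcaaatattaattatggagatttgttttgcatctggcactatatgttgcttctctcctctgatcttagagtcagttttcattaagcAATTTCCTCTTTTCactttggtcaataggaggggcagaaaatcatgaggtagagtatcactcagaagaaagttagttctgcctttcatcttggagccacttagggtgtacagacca
Ly49s7: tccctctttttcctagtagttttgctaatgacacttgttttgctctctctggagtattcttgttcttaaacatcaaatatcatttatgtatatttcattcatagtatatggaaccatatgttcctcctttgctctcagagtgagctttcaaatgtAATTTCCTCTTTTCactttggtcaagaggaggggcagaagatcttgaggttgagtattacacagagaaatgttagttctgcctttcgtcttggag
Klra22: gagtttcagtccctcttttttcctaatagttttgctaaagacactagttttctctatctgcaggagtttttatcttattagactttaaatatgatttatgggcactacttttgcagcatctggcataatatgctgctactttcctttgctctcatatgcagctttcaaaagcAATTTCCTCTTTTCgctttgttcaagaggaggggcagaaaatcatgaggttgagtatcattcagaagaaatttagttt
The shared run of 14 bases ends 103, 82 and 65 bases before the start of Klra1, Ly49s7 and Klra22. The Klra1 and Ly49s7 windows were identical at 80.9% of 220 aligned bases, Klra1 and Klra22 at 81.0% and Ly49s7 and Klra22 at 81.4%. Other relatives of Klra1 that were lower in SHR had windows identical to its own at 84.7% (Klra5), 83.3% (Ly49si1) and 74.6% (Klra2) of aligned bases.

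The windows of Klrk1 and Gzmb are shown as a receptor and a granule gene with matches to short motifs of factors that act in lymphocytes. They lie at chr4:164778383-164778632 and chr15:34462470-34462719, both on the minus strand. In Klrk1 capitals mark TGTGGT, the core letters bound by RUNX factors. In Gzmb they mark 3 matches to the RUNX letters on either strand, 1 to TTCNNNGAA (STAT) and 1 to TATAAA.
Klrk1: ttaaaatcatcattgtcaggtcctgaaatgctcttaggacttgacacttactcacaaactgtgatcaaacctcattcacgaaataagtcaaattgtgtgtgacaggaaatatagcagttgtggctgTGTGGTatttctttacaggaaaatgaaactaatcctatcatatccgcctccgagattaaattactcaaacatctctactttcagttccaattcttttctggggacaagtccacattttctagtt
Gzmb: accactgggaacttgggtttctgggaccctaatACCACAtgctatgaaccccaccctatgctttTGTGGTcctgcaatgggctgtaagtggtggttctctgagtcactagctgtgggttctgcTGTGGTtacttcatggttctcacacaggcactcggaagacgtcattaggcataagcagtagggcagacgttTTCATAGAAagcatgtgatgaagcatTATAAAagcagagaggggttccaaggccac
On either strand, TGTGGT was found before 6 of the 8 members with sequence, Klrk1, Klrc1, Nkg7, Prf1, Gzma and Gzmb, against 14.5% of all 33469 windows of that length. In Klrc1 it overlaps a match to TATAAA. The windows of Klra1 and Ly49s7 held none of the motifs searched. The others searched on both strands were TATAAA (found in 12.9% of all windows), GGTGTGA (T-box, 3.22%), CTTTGA (TCF, 13.9%), AGGAAG (ETS, 29.5%), TTCNNNGAA (7.67%) and TTGCGCAA (CEBP, 0.14%). These are matches of letters only.

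Levels are given as the log2 processed signal of a probe minus the 75th percentile of its array, so that 0 is the level of that percentile and a difference of 1 is a doubling. Each array is named by strain and the numbers of its title. On each array 94.8% to 97.7% of spots were well above background, 0 were saturated and the 75th percentile lay between 333 and 648. SHR 3-3 had the lowest of these percentiles. By scan time the arrays fell into 3 slides. SHR 2-3, 3-1, 3-3 and 3-4 were on slide 1. On slide 2, SHR 2-1 lay beside WKY 1-5, 4-1 and 4-2, and WKY 1-2 and 1-3 had slide 3 to themselves. Strain and slide were therefore nearly confounded. Of the 13 probes, 12 lay under the median signal of the array on all 10 arrays, the exception being the brighter probe of Klrk1. The dimmest signal scored well above background was 12.0 to 16.5 units, depending on the array.

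Both Ly49 receptors of the set were lower in SHR, Klra1 by 3.88-fold and Ly49s7 by 2.33-fold. The fold of Klra1 is imprecise, since its probe was well above background on only 3 of the 5 SHR arrays, and its log2 difference of −1.96 was −0.60 with normexp. The other 8 genes, which comprise the CD94, NKG2A, NKG2D and KLRG1 receptors and all 4 granule genes, did not pass the test. Thus 2 of 10 members were lower and 0 higher (limma, Benjamini-Hochberg adjusted over 14711 genes). Across all genes tested 4.36% passed, 2.85% lower and 1.51% higher in SHR. At an unadjusted p under 0.05 there were 4 members, against 20.3% of all genes. The median difference of the 10 was −0.28, against −0.02 over all genes, and 8 of the 10 lay below 0, against 53.4%. The strains did not overlap in 3 members, Klra1, Ly49s7 and Gzma, all lower in SHR. Over all genes the strains did not overlap in 7.25%, and 4.11% were lower in this way. Read probe by probe, 4 of the 13 passed, against 3.84% of all probes.

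**Figure D1:**
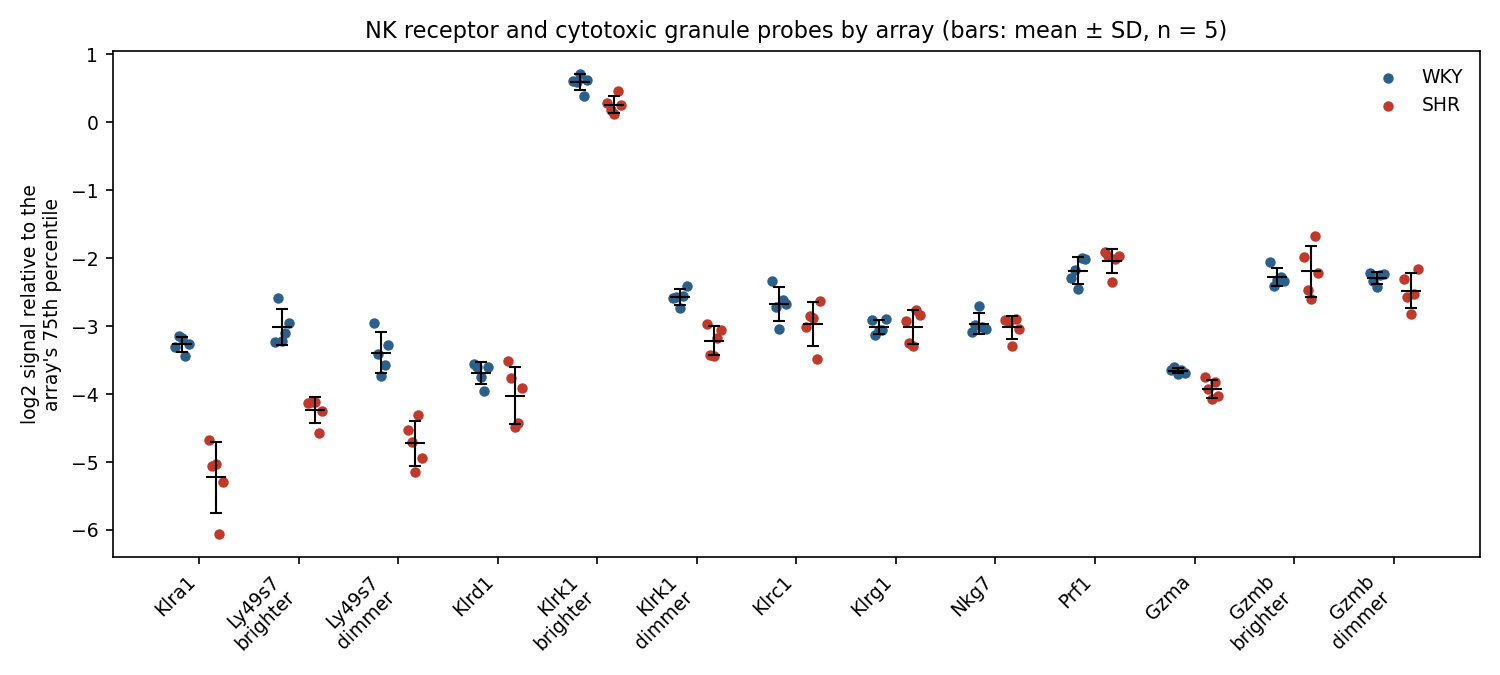
The log2 signal of each of the 13 probes relative to the array's 75th percentile, with 1 point per array, 5 SHR and 5 WKY, and bars for the mean ± SD. The SHR points of Klra1, from −6.06 to −4.67, all lie below the WKY points, from −3.44 to −3.15, while the points of Klrg1, Nkg7, Prf1 and Gzmb overlap.

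Klra1 encodes a Ly49 receptor, a family of MHC class I readers with inhibitory and activating members. Its log2 level was −4.67, −5.06, −5.03, −6.06 and −5.30 in SHR 2-1, 2-3, 3-1, 3-3 and 3-4. In WKY 1-2, 1-3, 1-5, 4-1 and 4-2 it was −3.31, −3.15, −3.18, −3.44 and −3.27. Every SHR array lay below every WKY array, with SHR 3-3 the lowest and the WKY arrays close together. The means were −5.23 ± 0.52 in SHR and −3.27 ± 0.11 in WKY (SD, n = 5 each). The difference was −1.96 ± 0.20 (SE; 95% interval −2.40 to −1.51; limma adjusted p = 0.000152). In processed signal, SHR arrays read 4.98 to 19.8 units and WKY arrays 48.6 to 66.6. The probe was well above background on only 3 of the 5 SHR arrays and on all 5 WKY arrays, so the SHR level lay at the edge of detection. Where the background was handled by normexp, which adds an offset to dim signals, the difference was −0.60 (adjusted p = 5.6e-05).

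Ly49s7 is named in the stimulatory class of the family, whose members signal through the adaptor DAP12 (Tyrobp). Its brighter probe read −4.13, −4.12, −4.11, −4.57 and −4.25 in SHR 2-1, 2-3, 3-1, 3-3 and 3-4. In WKY 1-2, 1-3, 1-5, 4-1 and 4-2 that probe read −3.23, −2.59, −3.22, −3.10 and −2.95. The strains were again apart, and the probe was well above background on all 10 arrays. The difference was −1.22 ± 0.14 (SE, n = 5 each; 95% interval −1.52 to −0.92; limma adjusted p = 0.000274), and −0.49 with normexp (adjusted p = 0.00505). A dimmer probe of the gene read −4.53, −4.71, −5.15, −4.30 and −4.94 in SHR and −2.95, −3.40, −3.74, −3.57 and −3.28 in WKY, in the same orders of arrays. It lay well above background in all but 1 of the SHR arrays, and its difference of −1.34 ± 0.17 (SE) passed the test (adjusted p = 7.6e-04 over all probes). The 2 probes of Ly49s7 thus gave the same direction and similar sizes.

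Neither result rested on 1 array. Leaving out each array in turn gave −2.09 to −1.75 for Klra1 and −1.27 to −1.11 for Ly49s7, past the threshold all 10 times. Without SHR 3-3 the differences were −1.75 and −1.13. With the slide as a fixed block, which draws on slide 2 for the strain difference, Klra1 was at −1.38 ± 0.34 (adjusted p = 0.233) and Ly49s7 at −1.04 ± 0.26 (adjusted p = 0.248), so both calls were lost while the direction was kept. These are also the differences within slide 2, where a single SHR array stood against 3 WKY arrays, so that the spread among SHR arrays was not measured there. With the slide as a random block they were −2.10 and −1.24. Ly49 genes are close paralogs, and Klra1 is also an older name of Klra22 and Klra2. The span of Ly49s7 overlaps that of Klra5. Signal from a relative on these probes was not tested, nor were strain differences in the sequence under a probe, since no probe sequence was used here.

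Klrk1 encodes NKG2D, an activating receptor that signals through DAP10 (Hcst) and binds ligands of stressed cells. Its brighter probe read 0.29, 0.18, 0.13, 0.46 and 0.25 in SHR 2-1, 2-3, 3-1, 3-3 and 3-4, and 0.61, 0.60, 0.71, 0.39 and 0.62 in WKY 1-2, 1-3, 1-5, 4-1 and 4-2. Only SHR 3-3 and WKY 4-1 overlapped. The difference of −0.33 ± 0.09 (SE; 95% interval −0.53 to −0.13) missed the threshold (limma adjusted p = 0.0631). Without SHR 3-3 it passed, with adjusted p = 0.0273. It also passed with quantile normalisation (0.0410), with normexp (0.0427), with the authors' values (0.0366), with array weights (0.0323) and with the mean of both probes (0.00811, all adjusted p). It passed as well with a random block by slide (adjusted p = 0.00477) or by title number (adjusted p = 0.0166). It missed with median scaling (adjusted p = 0.0772), and with the slide as a fixed block it was at −0.29 ± 0.18 (adjusted p = 1.00). The dimmer probe read −2.97, −3.42, −3.44, −3.18 and −3.06 in SHR and −2.59, −2.57, −2.74, −2.55 and −2.42 in WKY, with no overlap. Its difference was −0.64 ± 0.11 (SE, adjusted p = 0.00613 over all probes), so the 2 probes of Klrk1 shared a direction and fell on opposite sides of the threshold. With the slide as a fixed block the dimmer probe was at −0.40 ± 0.20 and its call was lost (adjusted p = 1.00).

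Klrd1 encodes CD94, the invariant partner of the NKG2 chains. Its log2 level was −3.52, −3.77, −4.49, −4.42 and −3.91 in SHR 2-1, 2-3, 3-1, 3-3 and 3-4, and −3.56, −3.60, −3.74, −3.96 and −3.61 in WKY 1-2, 1-3, 1-5, 4-1 and 4-2. The strains overlapped, with SHR 3-1 and 3-3 below every WKY array and SHR 2-1 above all of them. The difference was −0.33 ± 0.18 (SE; 95% interval −0.71 to 0.05; limma adjusted p = 0.318), and 0.25 with the slide as a fixed block. As a random block the slide gave −0.45 (adjusted p = 0.0280). Klrc1 encodes NKG2A, the inhibitory chain that pairs with CD94, and has the close paralogs Klrc2 and Klrc3, whose signal on its probe was not tested. It read −3.01, −2.85, −2.88, −3.49 and −2.63 in SHR and −2.33, −2.71, −3.04, −2.62 and −2.67 in WKY, overlapping, with a difference of −0.30 ± 0.16 (95% interval −0.65 to 0.06; adjusted p = 0.328). Klrg1 encodes an inhibitory receptor for cadherins, found on mature NK and T cells and first known in the rat from mast cells. It ranged from −3.30 to −2.76 in SHR and from −3.14 to −2.90 in WKY, and its difference was −0.0035 ± 0.12 (95% interval −0.26 to 0.25; adjusted p = 0.990).

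The granule genes gave small differences. Gzma, spotted 10 times on each array, was the exception in that its strains did not overlap. It read −3.76, −3.93, −4.07, −3.82 and −4.03 in SHR 2-1, 2-3, 3-1, 3-3 and 3-4, and −3.64, −3.61, −3.71, −3.65 and −3.68 in WKY 1-2, 1-3, 1-5, 4-1 and 4-2. The gap was narrow, between SHR 2-1 and WKY 1-5. The difference was −0.26 ± 0.08 (SE; 95% interval −0.44 to −0.08), or 1.20-fold, and missed the threshold (limma adjusted p = 0.0950). It was −0.075 with the slide as a fixed block and −0.056 with normexp. As a random block the slide gave −0.30 (limma adjusted p = 0.00532) and the title number −0.27 (adjusted p = 0.0274), so Gzma passed there. The SD over the 10 spots of an array was 0.16 to 0.56.

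Prf1, the pore former, ranged from −2.36 to −1.90 in SHR and from −2.46 to −1.99 in WKY, a difference of 0.14 ± 0.12 (SE; 95% interval −0.11 to 0.39; limma adjusted p = 0.528). Nkg7, a granule membrane protein of NK and T cells, ranged from −3.29 to −2.90 in SHR and from −3.09 to −2.70 in WKY (difference −0.05 ± 0.10; 95% interval −0.28 to 0.18; adjusted p = 0.829). Gzmb, the granzyme that cleaves caspases, read −2.60 to −1.67 in SHR and −2.40 to −2.06 in WKY on its brighter probe. That difference was 0.09 ± 0.16 (95% interval −0.26 to 0.43; adjusted p = 0.802). Its dimmer probe gave −0.19 ± 0.12 (adjusted p = 0.408 over all probes), so the direction of Gzmb depended on the probe. For these 3 genes and Klrg1 the intervals of the log2 difference reached from −0.28 to 0.43 at their widest, and a miss of the threshold does not show equal levels.

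**Figure D2:**
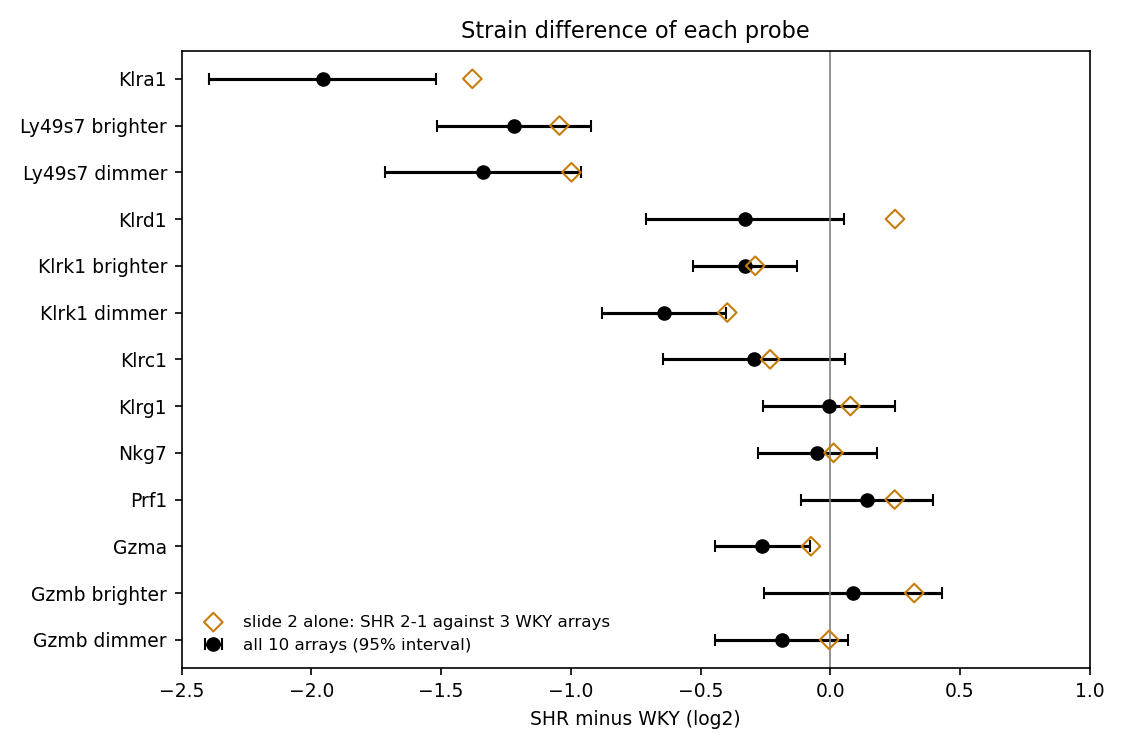
The difference SHR minus WKY (log2) of each probe, with its 95% interval over all 10 arrays as black points, and the difference within slide 2 alone (SHR 2-1 against 3 WKY arrays) as open diamonds. Klra1 and both probes of Ly49s7 lie farthest below 0, with Klra1 at −1.96 over all arrays and −1.38 within slide 2.

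The 2 Ly49 genes were next placed among their neighbours. From Klrb1a to Klra2 the RefSeq table lists 88 genes of the natural killer gene complex in the reference assembly. Whether SHR and WKY carry all of them was not tested. Of the 88 genes, 47 were on the array and 44 were tested, members included. Of these 8 were lower and 1 was higher in SHR, against 2.85% and 1.51% of all genes, and the median was −0.23. Beside Klra1 and Ly49s7 the lower ones were Klra2, Klra5, Ly49si1, Klri1, Clec12a (−0.89, limma adjusted p = 3.6e-04) and LOC690045 (−0.97, adjusted p = 0.00456). Clec12a encodes an inhibitory lectin-like receptor of myeloid cells. Clec2dl1 was the higher gene (0.71, adjusted p = 8.6e-04), and it was not called when probes of a gene were averaged. The last 5 tested genes of the order were Klra1, Klra5, Ly49s7, Ly49i7 and Klra2, and all but Ly49i7 (−0.32, adjusted p = 0.126) were lower. The count of lower genes was 6 to 9 when each array was left out and 5 with the filter on all arrays. It was 0 with the slide as a fixed block. With the slide as a random block it was 19, and 14 with a random block by the first number of the title. Over all genes 2101 and 1110 were lower with these random blocks, against 419 in the main fit.

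**Figure D3:**
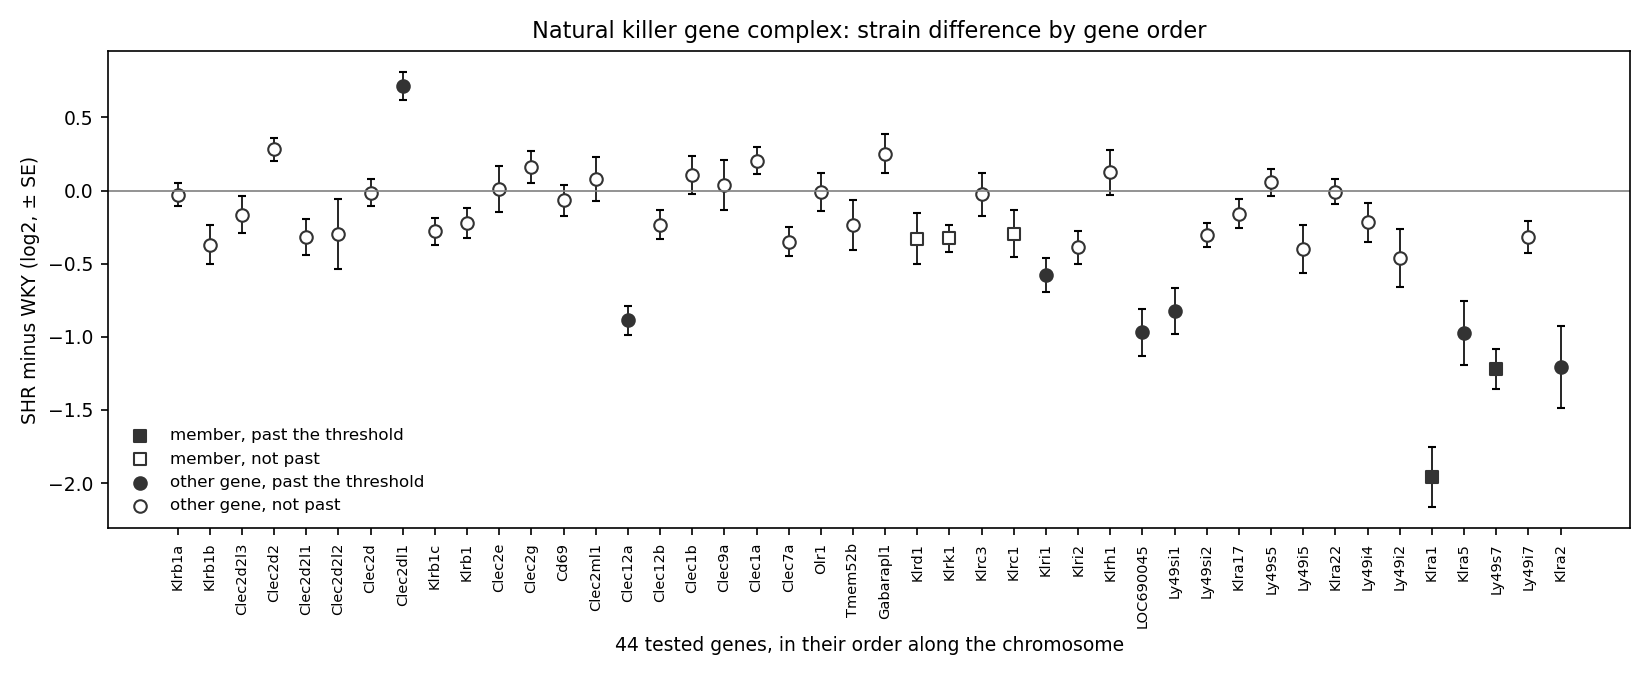
The difference SHR minus WKY (log2, ± SE) of the 44 tested genes of the natural killer gene complex, in their order along chromosome 4. Squares are members of the set, circles are other genes, and filled symbols passed the threshold. Of the 44 points 33 lie below 0, against 53.4% of all genes, and the lowest is Klra1 at −1.96.

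Of 27 Ly49 or Klra genes listed in the complex, 14 were on the array and 13 were tested. There 5 were lower, 0 were higher and 12 lay below 0, against 2.85%, 1.51% and 53.4% of all genes. The median was −0.40 and the range from −1.96 to 0.06. The family did not move as a block, since Klra22 was at −0.01 ± 0.09 (SE, n = 5 each, limma adjusted p = 0.965) and Klra1 at the low end. Klra2 was well above background in 5 of 5 WKY and in 0 of 5 SHR arrays. It thus passed the filter only through WKY, where it was high (limma adjusted p = 0.0324, and 0.0376 with no filter). The WKY mean was 1.34-fold above the dimmest signal well above background, averaged over SHR arrays. This sets no strict limit on the SHR level. In SHR 2-3 Klra2 read −5.34, above that signal at −5.42, and was still not scored well above background. In SHR 3-4 that signal was −4.79, near the WKY mean of −4.69. Klra2 is counted among the lower genes of the complex, the family and the receptor list below. Its call was lost when SHR 3-1, SHR 3-4, WKY 1-2, WKY 1-3, WKY 4-1 or WKY 4-2 was left out. The Klra2 call was also lost with normexp and with quantile normalisation. Klra5 differed by −0.97 ± 0.22 (adjusted p = 0.0276) and was detected above background in 4 of 5 SHR arrays. It lost its call without SHR 3-1, WKY 1-2, WKY 1-3, WKY 4-1 or WKY 4-2, and with normexp. The filter on all arrays leaves out both Klra2 and Klra5. Ly49si1 differed by −0.83 ± 0.16 (adjusted p = 0.0113) and Klri1, a lectin-like receptor of NK cells that pairs with KLRE1, by −0.58 ± 0.11 (adjusted p = 0.0146). Of the 5 lower genes of the family, only Klra1, Ly49s7 and Ly49si1 kept their calls with normexp.

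In a list of receptors of the complex, 25 were tested, 1 of them Klrd1 under its older name Cd94. Of these 4 were lower and 0 higher, the ones just named, and the median was −0.24. Over all genes 2.85% were lower, 1.51% higher and 20.3% at an unadjusted p under 0.05. These shares stand against the counts of each list and marker set below. Without SHR 3-1, WKY 1-2, WKY 1-3, WKY 4-1 or WKY 4-2, with normexp and with the filter on all arrays, 2 were lower; 1 was higher with normexp, quantile normalisation, median scaling and the authors' values. The Klrb1 receptors, which bind Clec2 lectins, did not pass the test.

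Among 19 tested receptors and adaptors outside the complex, 3 were lower and 0 higher, with a median of −0.07. They were Fcer1g (−1.18), Syk and Fcgr3a, an Fc receptor chain, the kinase behind it and the Fc receptor CD16, all 3 of which macrophages also express. Syk differed by −1.14 ± 0.15 (SE; limma adjusted p = 7.7e-04), a call lost with the mean of its probes (adjusted p = 0.104), and Fcgr3a by −0.87 ± 0.14 (adjusted p = 0.00298). Of 22 other granule genes 0 passed in limma and 3 had an unadjusted p under 0.05, with a median of −0.14. The largest differences there were those of Rab27a, which docks granules, at −0.49 (adjusted p = 0.101), and of Gzmc, a granzyme, at −0.46 (adjusted p = 0.133, and 0.0242 without SHR 3-4). Without SHR 3-3, 1 of the 22 was higher. With a random block 5 of the 22 were lower by slide and 1 by title number.

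Of 25 tested transcription factors, cytokines and their receptors, 2 were lower and 0 higher, with a median of −0.09. These were Il18 (−0.78), a cytokine that activates NK cells, and Ccl5, a chemokine that NK and T cells secrete, at −0.53 ± 0.13 (SE; limma adjusted p = 0.0368). The Ccl5 call was kept when SHR 2-1, SHR 2-3, WKY 1-2 or WKY 4-2 was left out and lost without any of the other 6 arrays and also with median scaling, normexp or the table of the authors. Of 9 tested ligands of the receptors, 2 were lower and 1 was higher, with a median of −0.30. The lower ones were the MHC class I genes RT1-CE16 (−1.55) and RT1-A2 (−1.36 ± 0.27, adjusted p = 0.0146), and the higher one was RT1-CE10 (0.79), also class I. Strain differences in the sequence under these class I probes, and signal from related class I genes, were not tested. With the slide as a fixed block 0 genes of these lists passed.

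Markers of NK cells and of the other leukocytes of the gland were read beside the Ly49 genes. All 8 tested NK markers, 4 of them members of the set, were well above background on all 10 arrays. Of these, 0 passed the test in limma, 3 had an unadjusted p under 0.05, and the median was −0.15. Their summed level, in multiples of the array's 75th percentile, was 1.18 to 1.52 in SHR and 1.43 to 1.60 in WKY, which overlap. With a random block 2 of the 8 NK markers were lower by slide and 1 by title number. T cell markers (12 tested, 0 past, 2 at an unadjusted p under 0.05, median −0.03) summed to 4.60 to 6.35 in SHR and 5.56 to 6.89 in WKY. Only SHR 2-1, at 6.35, reached into the WKY range, and the other SHR arrays summed to 4.60 to 4.86. Without SHR 2-1 or WKY 4-2, 1 of the 12 was lower. The count was also 1 with normexp, quantile normalisation, the authors' values, the filter on all arrays or a variance trend. With a random block 1 was lower by title number and 3 by slide.

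Of 10 macrophage markers tested, 2 were lower in SHR, Cd68 (−0.97) and Aif1 (−0.81), against 2.85% of all genes. The other 8 did not pass. All 10 lay below 0, against 53.4% of all genes, and 6 had an unadjusted p under 0.05. The median of the 10 was −0.50, and −0.33 without SHR 3-3. Their sum was 5.60 to 11.2 in SHR and 11.8 to 17.4 in WKY, without overlap, and 9 of the 10 were above background on every array. Without SHR 2-3, SHR 3-1, WKY 1-3, WKY 4-1 or WKY 4-2 only 1 of them passed, and 0 with the slide as a fixed block. Of 6 markers of all leukocytes 2 were lower, Ptprc (−0.70) and Cd53 (−1.07). The median of the 6 was −0.40, 5 lay below 0 and 4 had an unadjusted p under 0.05. Their sums overlapped, with 23.1 to 27.9 in SHR and 20.3 to 28.2 in WKY. The count of 2 was 0 or 1 without any array except SHR 3-3. In the remaining lists, 1 of 8 mast cell, 0 of 5 B and plasma cell and 0 of 4 neutrophil markers passed. The mast cell gene, Cpa3 (−0.58), was not called without SHR 2-3, WKY 1-2, WKY 1-3 or WKY 4-1. Among gland markers 1 of 6 acinar genes was lower and 1 higher, and 4 had an unadjusted p under 0.05. The acinar median was 0.28, and 0.09 with normexp. Acinar sums were 383 to 677 in SHR and 332 to 384 in WKY, where only SHR 3-1 and WKY 1-5 overlapped. Of 8 duct genes 0 passed, with a median of −0.077. Without SHR 3-3, 2 duct genes were higher and 1 lower, with a median of 0.20. The acinar gene that was higher was not called without SHR 2-1, SHR 2-3, SHR 3-4 or any 1 of the WKY arrays. The part of macrophages or other cells in the Ly49 difference was not tested.

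**Figure D4:**
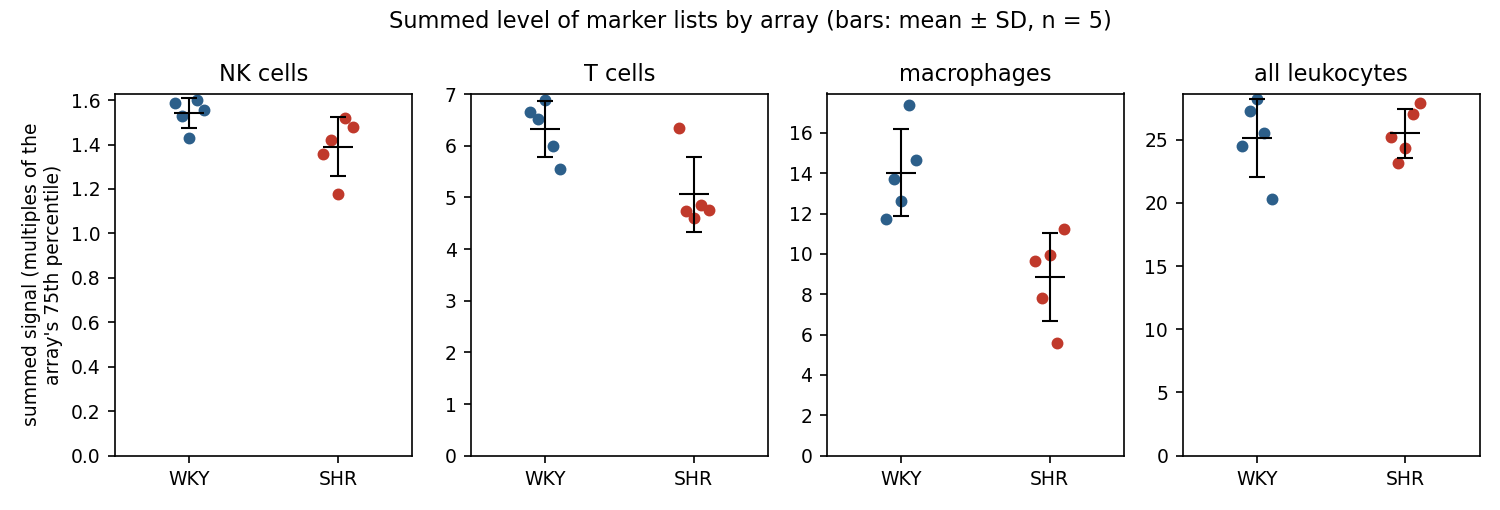
Summed signal of marker lists on each array, in multiples of the array's 75th percentile, with 1 point per array and bars for the mean ± SD of 5 arrays. The macrophage sums of the strains do not overlap (5.60 to 11.2 in SHR, 11.8 to 17.4 in WKY), whereas the NK cell sums do.

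Over the 10 arrays, the named genes whose log2 levels were most like that of Klra1 were RT1-Db1 (Pearson r = 0.988), Calhm6 (0.978) and RT1-T24-4 (0.974). For Ly49s7 they were RT1-T24-4 (0.977), RT1-Db1 (0.972) and Mcpt9 (0.970). RT1-Db1 encodes an MHC class II chain and Mcpt9 a mast cell protease. These values include the strain difference that all of these genes share. With the strain means removed, r was 0.739 to 0.885 between Klra1 and the genes named for it, highest with RT1-Db1. For Ly49s7 it was 0.658 (Mcpt9) to 0.781 (RT1-T24-4). The genes were picked for their r on these same arrays, which favours a high r within strain too. The r without SHR 3-3, where Klra1 was lowest, was not computed. Among the members themselves, within strain, the pair most alike was Klrg1 and Gzmb (r = 0.853), while Klra1 and Ly49s7 had r = 0.630. These are descriptions over 10 arrays that share slides.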

How the data were processed

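Agilent Feature Extraction 11.0.1.1 read the scans, per the file headers, and its processed signal is a background-subtracted intensity on a linear scale. The authors' deposited table holds log2 values with the same median, 7.19, in every column and served as an alternative; its making is not stated in the sources used here.

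The 75th percentile of each array was subtracted from its log2 intensities. Outlier spots were set to missing and spots of a probe averaged. A probe was kept if well above background in 5 or more of the 10 arrays (29266 of 30367). Names came from RefSeq accessions of assembly GRCr8, so that 18005 probes had 1 gene name and 12362 had none. The brightest kept probe stood for a gene. SHR and WKY were compared with limma (lmFit and eBayes, no covariates, two-sided, Benjamini-Hochberg over 14711 genes, threshold 0.05), and every probe in a separate fit. The titles carry different numbers in each strain, so nothing pairs the arrays. The labels' design text gives 5 rats a strain.

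The members, lists and alternatives were chosen with earlier results of these data known. Named are all members, of each list up to 4 genes past the threshold or else the 2 largest differences, and the 3 genes most like each called member. The complex was joined across gaps of up to 25 genes, and Clec12a, LOC690045, Clec2dl1, Klra22, Ly49i7 and the marker genes were named after their values were seen. Arrays scanned in 1 pass were taken as 1 slide. Normexp (offset 50) used the median signal, where the plan had assumed the mean, and was followed by quantile normalisation. Other alternatives were other scalings, other filters, outlier spots kept, averaged probes, array weights, a variance trend, slide and title blocks, and each array left out. The fit was tested on simulated data. Tests ran in R 4.3.3 with limma 3.58.1; sequences and plots were handled in Python 3.11.15 with Biopython 1.88, pandas 2.3.3 and matplotlib 3.10.9.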

Additional observations from a re-analysis of the deposited data

Results flagged for a closer look

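In 2 of 26 groups of 5 arrays, a probe of 1 strain each, a single array lay far from the rest, where chance gives about 1 in 20 groups. Nkg7 read −2.70 in WKY 1-5, against −3.09 to −2.99 in the other WKY arrays. Prf1 read −2.36 in SHR 3-1, against −2.01 to −1.90 in the other SHR arrays.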

How the results depend on the processing

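The count of members past the threshold, 2 of 10, became 1 with the filter on all arrays, which leaves out Klra1, 0 with the slide as a fixed block, 1 within slide 2 alone, where the spread is that of 3 WKY arrays and a single SHR array is assumed to share it, 5 with the slide as a random block and 4 with a random block by the first number of the title. Probe by probe the count of 4 became 0 with the slide as a fixed block and 7 with the slide as a random block. The count of members was 3 with normexp, quantile normalisation, the authors' values, the mean of probes and array weights. The random block by title number added Klrk1 and Gzma, and that by slide added Klrk1, Gzma and Klrd1. Calls over all 14711 genes moved too, from 222 higher and 419 lower to 1350 and 2101 with the slide as a random block. With the title number as a random block they were 669 and 1110.

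Directions turned only in genes that missed the threshold. Klrg1, at −0.0035, was 0.020 with normexp, 0.069 with quantile normalisation, 0.029 with median scaling, 0.073 in the authors' table, 0.077 both with the slide as a fixed block and within slide 2, 0.0052 with the title number as a random block, and −0.066 to 0.068 with an array left out. Nkg7 was 0.018 with normexp, 0.021 with quantile normalisation, 0.024 in the authors' table, 0.013 both with the slide as a fixed block and within slide 2, and −0.081 to 0.018 with an array left out. Gzmb was −0.049 with the mean of its probes and −0.042 to 0.19 with an array left out. Klrd1 was 0.25 with the slide as a fixed block and within slide 2. The cause was not tested.

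Over all genes the split of 222 higher and 419 lower was 279 and 354 with normexp, 351 and 422 with quantile normalisation, 336 and 386 with median scaling, and 423 and 433 with the authors' values. It was 12 and 32 with the slide as a fixed block. With random blocks it was 1350 and 2101 by slide, and 669 and 1110 by title number. Strain and slide can hardly be told apart, since slide 2 alone held both strains, with 1 SHR array. Most member probes were dim, and 5 arrays a strain limit the precision.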
